A study of Homo sapiens with 4 samples.

Results

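The forkhead factors other than the FOXA group are transcription factors that share a winged-helix DNA-binding domain, and 33 of their autosomal genes are described here, out of 19229 autosomal protein-coding genes in the annotation. The genes were taken by name from a list of the family. H3K27 acetylation (H3K27ac), a histone mark found at active promoters and enhancers, was mapped by ChIP-seq with the antibody ab4729 in 4 human cancer cell lines, with 1 library for each. COLO-205 is a colon cancer line grown in RPMI with FBS, and DU-145 is a prostate cancer line grown in Eagle minimal essential medium with FBS. OVCAR-3 and SKOV-3 are ovarian cancer lines, the former grown in an RPMI medium and the latter in a McCoy medium, both with FBS. With 1 library per line there was no replicate check on any difference between lines, no test was run, and line, tissue and medium cannot be told apart.

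Many members are known from the embryonic tissues that need them. The FOXO proteins are held out of the nucleus when phosphorylated, and act in stress resistance and cell cycle arrest. FOXM1 drives genes of mitosis, and FOXJ1 is the master regulator of motile cilia.

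The lists of peaks differed in length before any gene was considered. COLO-205 held 85576 peaks, DU-145 held 75468, OVCAR-3 held 76093 and SKOV-3 held 14001. SKOV-3 thus stood apart from the other libraries, and counts over the lines are given with and without it. Median tag pileup at the summits was 27 in OVCAR-3, 24 in COLO-205, 30 in SKOV-3 and 27 in DU-145. Peaks were also unevenly spread over chromosomes, and SKOV-3 had 65 peaks on chromosome 7. DU-145 had 10794 on chromosome 14, COLO-205 had 12078 on chromosome 13 and OVCAR-3 had 10559 on chromosome 3. Whether copy number had a part in this was not tested.

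Marker genes were read by the same promoter rule. Of 7 colon markers, 4 were marked in COLO-205, among them CDX2 and VIL1, while CDX1, CDH17 and KRT20 were not marked in it. LGALS4 alone of this list was marked in DU-145 and OVCAR-3, and no gene of it in SKOV-3. Of the prostate markers, TMPRSS2 and STEAP2 were marked in DU-145, and KLK2, KLK3 and HOXB13 were not. These genes did not set DU-145 apart, since TMPRSS2, KLK2 and KLK3 were marked in COLO-205, and TMPRSS2, STEAP2 and HOXB13 in OVCAR-3. Of 7 ovarian carcinoma markers, 7 were marked in OVCAR-3 and 3 in SKOV-3. Of the same genes 5 were marked in COLO-205 and 4 in DU-145, and SOX17 was the only one marked in both ovarian lines and in neither of the others. Of 5 epithelial markers, 5 were marked in COLO-205, DU-145 and OVCAR-3 and 2 in SKOV-3. Of 5 mesenchymal markers, 4 were marked in SKOV-3, 2 in OVCAR-3, 1 in COLO-205 and 2 in DU-145. None of 5 blood markers was marked in any line, and of the 2 endothelial markers found in the annotation CDH5 was marked in DU-145.

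The sequences show the 200 bases before the first annotated transcript start of 4 members, 5′ to 3′ on the strand of the gene, from hg19, with CpG dinucleotides in capitals. FOXI2, FOXJ2 and FOXF2 were each marked in a single line, FOXI2 in COLO-205, FOXJ2 in DU-145 and FOXF2 in SKOV-3, and FOXD1 had the highest median percentile of fold enrichment among the members marked in all 4. They lie at chr10:129535249-129535448 (plus strand), chr12:8185112-8185311 (plus), chr6:1389611-1389810 (plus) and chr5:72744603-72744802 (minus). The FOXI2 stretch overlaps an exon of a transcript whose existence is still to be tested, and the others overlap no annotated exon.
FOXI2: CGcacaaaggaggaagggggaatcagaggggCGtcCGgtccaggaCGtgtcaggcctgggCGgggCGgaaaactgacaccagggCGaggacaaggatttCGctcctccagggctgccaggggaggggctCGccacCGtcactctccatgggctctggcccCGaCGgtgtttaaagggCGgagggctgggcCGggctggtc
FOXJ2: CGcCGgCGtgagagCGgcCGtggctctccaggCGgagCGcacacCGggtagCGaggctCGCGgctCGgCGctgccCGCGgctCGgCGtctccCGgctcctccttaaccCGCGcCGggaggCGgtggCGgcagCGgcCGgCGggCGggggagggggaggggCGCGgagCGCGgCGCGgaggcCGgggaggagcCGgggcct
FOXF2: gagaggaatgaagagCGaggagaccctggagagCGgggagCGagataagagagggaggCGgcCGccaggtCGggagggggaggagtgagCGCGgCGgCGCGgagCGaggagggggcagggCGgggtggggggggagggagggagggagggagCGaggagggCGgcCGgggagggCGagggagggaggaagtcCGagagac
FOXD1: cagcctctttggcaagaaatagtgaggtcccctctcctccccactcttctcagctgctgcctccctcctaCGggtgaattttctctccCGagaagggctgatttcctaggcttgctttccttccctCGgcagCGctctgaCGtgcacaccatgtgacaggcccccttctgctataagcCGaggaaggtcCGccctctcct
The 200 bases hold 14 CpG in FOXI2, 35 in FOXJ2, 18 in FOXF2 and 7 in FOXD1. No base of the first 3 stretches lay under a peak in any line, so the peaks that marked these genes lay elsewhere in the window. In FOXD1, 200 bases lay under a peak in DU-145 and 98 in OVCAR-3.

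A gene was called marked when a peak overlapped the 1 kb on either side of any of its annotated transcript starts. In COLO-205, 23 of the 33 forkhead genes were marked, against 52.8% of all autosomal protein-coding genes. In DU-145, 18 were marked, against 62% of all genes. In OVCAR-3, 17 were marked, against 61.5%, and in SKOV-3 14 were marked, against 32.4%. As shares of the family these are 69.7% for COLO-205, 54.5% for DU-145, 51.5% for OVCAR-3 and 42.4% for SKOV-3. The family thus lay above the share of all genes in COLO-205 and SKOV-3 and below it in DU-145 and OVCAR-3. When each list was shortened to its 14001 strongest peaks, 12 members were marked in OVCAR-3, against 39% of all genes, and 12 in COLO-205, against 22.7%. At that length 14 were marked in SKOV-3, against 32.4%, and 13 in DU-145, against 39.6%. At this length the count of COLO-205 was thus not the highest, while its share of all genes was the lowest.

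**Figure D1:**
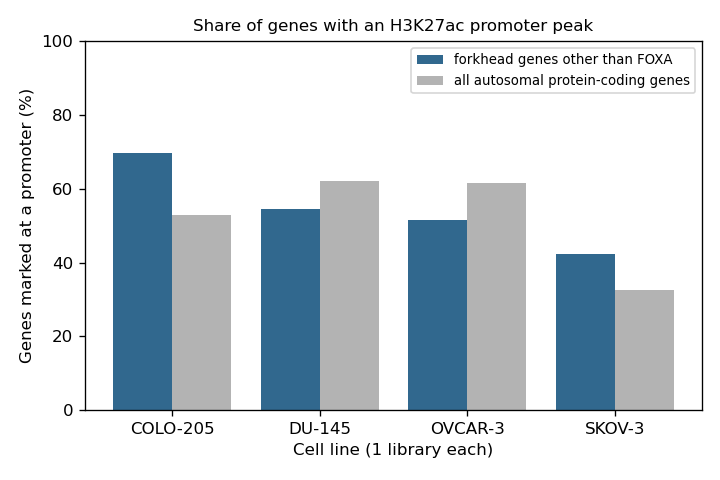
Share of genes with an H3K27ac peak within 1 kb of a transcript start (y axis, percent) in each cell line (x axis, 1 library each), for the 33 forkhead genes (dark bars) and all 19229 autosomal protein-coding genes (grey bars). The forkhead share is 69.7% in COLO-205 and 42.4% in SKOV-3.

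Across lines, 9 members were marked in all 4, against 26% of all genes, and 5 were marked in none, against 23.4%. Exactly 1 line marked 8 members, against 15.2% of all genes. The 9 were FOXD1, FOXJ3, FOXK1, FOXK2, FOXM1, FOXN2, FOXN3, FOXP1 and FOXP4. The 5 were FOXD4, FOXE3, FOXF1, FOXH1 and FOXP2. Without SKOV-3, 11 members were marked in all 3 other lines, against 39.6% of all genes, 6 in none, against 23.7%, and 7 in exactly 1, against 15.9%.

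**Figure D2:**
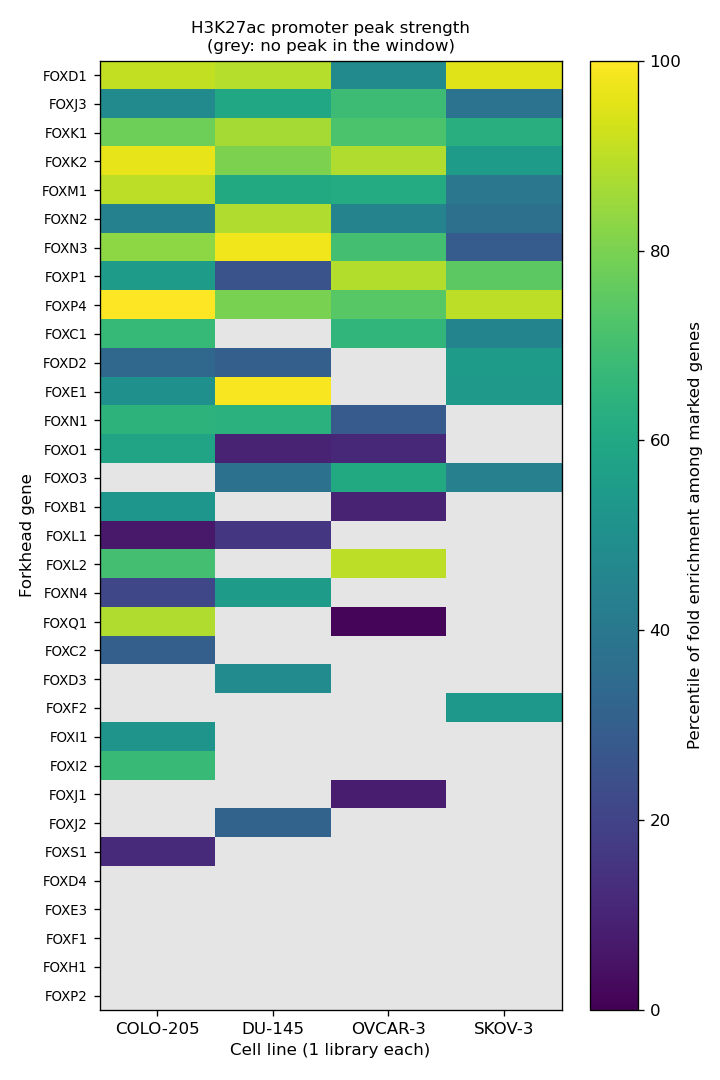
Percentile of each member's highest promoter fold enrichment among all marked autosomal protein-coding genes of the same library (colour, 0 to 100), by gene (y axis) and cell line (x axis, 1 library each), with grey where no peak overlapped the window. The top 9 rows are marked in every line and the bottom 5 in none.

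Strength is given as the fold enrichment of the summit over the local background of the same library. It is not scaled between libraries, so members are placed by percentile among the marked genes of their own library. The peak with the highest fold was used for each member and line, and its nearest start could differ between lines. Its summit could also lie outside the window, as for FOXQ1 and FOXB1 in COLO-205 and FOXN1 in DU-145 and OVCAR-3. The median percentile of marked members was 61.7 in OVCAR-3, 58.4 in COLO-205, 53.8 in SKOV-3 and 60.1 in DU-145. Single members lay far from these medians, from percentile 1.36 for FOXQ1 in OVCAR-3 to 99.9 for FOXP4 in COLO-205.

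Of the FOXO genes, FOXO1 was marked in COLO-205, DU-145 and OVCAR-3, and FOXO3 in DU-145, OVCAR-3 and SKOV-3. FOXO1 fold enrichment was 4.81 in COLO-205, 3.23 in DU-145 and 4.13 in OVCAR-3, at percentiles 58.4, 9.90 and 11.4. The COLO-205 peak lay nearest a start at chr13:41136901, and those of DU-145 and OVCAR-3 nearest a start at chr13:41240014. These values are therefore of different sites and do not rank the lines. The −log10 q of these peaks was 10.6, 13.4 and 19.6, and the highest of any FOXO1 promoter peak in COLO-205 was 14.8. At equal list length the marks in DU-145 and OVCAR-3 were lost. FOXO3 fold enrichment was 8.69 in OVCAR-3, 5.01 in SKOV-3 and 4.30 in DU-145, at percentiles 60.8, 43.5 and 37.2. In COLO-205 the nearest peak lay 1528 bp from a FOXO3 start, and a window of 2 kb marked it there.

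FOXM1, the mitotic factor, was marked in all 4 lines, with fold enrichments of 8.78 in OVCAR-3, 6.77 in COLO-205, 4.86 in SKOV-3 and 5.21 in DU-145. The SKOV-3 mark was lost at a −log10 q of at least 10. A start of RHNO1 lies 25 bp from a FOXM1 start and a start of TULP3 49 bp, and the mark at these genes cannot be told apart. Summit pileup at FOXM1 was 106 tags in OVCAR-3 (95% Poisson interval 86.8 to 128), 66 in COLO-205 (51.0 to 84.0), 29 in SKOV-3 (19.4 to 41.6) and 71 in DU-145 (55.5 to 89.6), intervals that cover counting error only.

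FOXK2, which like FOXK1 acts in metabolic control, had fold enrichments of 14.2 in OVCAR-3, 8.34 in COLO-205, 5.47 in SKOV-3 and 6.33 in DU-145. FOXP4, a repressor of the FOXP group, had 10.6 in OVCAR-3, 17.4 in COLO-205, 8.37 in SKOV-3 and 6.32 in DU-145. The COLO-205 peak at chr6:41512795-41517535 covered the FOXP4 start with a −log10 q of 150.2 and stood at percentile 99.9 of its library. A start of FOXP4-AS1 lies 126 bp from a FOXP4 start. The interval of 1 Mb around FOXP4 held 583 peaks in COLO-205, 19.7 times the autosomal mean of that library. FOXD1, a factor of the kidney stroma, had 7.20 in OVCAR-3, 6.90 in COLO-205, 9.67 in SKOV-3 and 7.28 in DU-145, with the highest median percentile of the 9 at 89.8.

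The lowest median percentiles of the 9 were those of FOXN2, FOXJ3 and FOXM1, at 44.3, 53.5 and 61.1. FOXN2 had fold enrichments of 6.92 in OVCAR-3, 4.34 in COLO-205, 4.77 in SKOV-3 and 7.16 in DU-145. FOXJ3 had 9.69 in OVCAR-3, 4.45 in COLO-205, 4.81 in SKOV-3 and 5.17 in DU-145. FOXK1, FOXN3 and FOXP1 lay between, with median percentiles of 74.7, 76.5 and 64.9. FOXP1 has 67 annotated starts and FOXN3 has 19, against 1 for many members. FOXP1 stayed marked in all 4 lines with the first start alone. FOXN3 was marked in SKOV-3 by a peak of fold 4.52 that was lost when only the first start was used, at a −log10 q of at least 10, and with an overlap of at least 200 bp.

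FOXN1, the factor of thymic epithelium, was marked in COLO-205, DU-145 and OVCAR-3 with fold enrichments of 5.05, 5.37 and 5.50. The marks in DU-145 and OVCAR-3 were lost with the first start alone. FOXN4, which acts in retinal progenitors, had 3.66 in COLO-205 and 5.01 in DU-145. FOXJ2 was marked in DU-145 with a fold of 4.11. In COLO-205 the nearest peak lay 1486 bp from a FOXJ2 start. FOXJ1 was marked in OVCAR-3 with a fold of 3.85, at percentile 8.19 of that library, by a peak at chr17:74137582-74137816. A start of RNF157-AS1 lies 271 bp from that of FOXJ1. The interval of 1 Mb around FOXJ1 held 267 peaks in OVCAR-3, 10.3 times the autosomal mean of that library. The ratio was 6.37 in COLO-205, 3.22 in DU-145 and 5.66 in SKOV-3, where FOXJ1 was not marked.

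Among the factors of mesenchyme and body pattern, FOXC1 was marked in COLO-205, OVCAR-3 and SKOV-3 with fold enrichments of 5.15, 9.29 and 5.08. FOXC2, known from lymphatic vessels, was marked in COLO-205 at 3.92, with a −log10 q of 5.56. FOXL1, a gut mesenchyme factor, had 3.13 in COLO-205 and 3.50 in DU-145, both in the lowest part of their libraries at percentiles 6.99 and 15.7. FOXF2 was marked in SKOV-3 at 5.42, with a pileup of 22 tags (95% Poisson interval 13.8 to 33.3). FOXF2 was marked in the shortest list alone, a pattern seen in 0.270% of all genes, and the mark was lost at a −log10 q of at least 10. FOXS1 was marked in COLO-205 at 3.32 by 149 bases of its window, and the mark was lost under 4 of 9 alternatives. FOXQ1 had 6.59 in COLO-205 and 2.96 in OVCAR-3, at percentiles 88.2 and 1.36. The COLO-205 summit lay 1383 bp from the start, outside the window, and the OVCAR-3 summit 249 bp from it.

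FOXL2, required in ovarian granulosa cells, had a fold of 14.9 in OVCAR-3 and 5.30 in COLO-205 and was not marked in DU-145 or SKOV-3. The COLO-205 mark was lost with a window of 500 bp and at equal list length. The OVCAR-3 peak at chr3:138664148-138666755 covered 88.8% of the FOXL2 window. FOXL2NB starts 80 bp from FOXL2, and their marks cannot be told apart. FOXE1, a thyroid factor, had 4.53 in COLO-205, 12.0 in DU-145 and 5.44 in SKOV-3. In DU-145 the peak at chr9:100614210-100618114 covered the whole FOXE1 window and stood at percentile 99.1. A start of PTCSC2 lies 146 bp from that of FOXE1.

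FOXD2 had fold enrichments of 5.47 in SKOV-3, 4.02 in COLO-205 and 4.05 in DU-145. FOXD3, a neural crest factor, was marked in DU-145 at 4.71, and FOXD3-AS1 starts 66 bp away. FOXB1, known from the developing hypothalamus, had 4.60 in COLO-205 and 4.01 in OVCAR-3. FOXI1, the factor of ionocytes, and FOXI2 were marked in COLO-205 at 4.59 and 5.18, with −log10 q of 7.66 and 8.84. Of the 4 members marked in COLO-205 alone, none was marked with −log10 q of at least 10.

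Marks were lost most often at equal list length and at a −log10 q of at least 10. At equal list length these were FOXC2, FOXD2, FOXE1, FOXI1, FOXI2, FOXL1, FOXL2, FOXN1, FOXN4, FOXP1 and FOXS1 in COLO-205, FOXD2, FOXL1, FOXN4, FOXO1 and FOXP1 in DU-145, and FOXB1, FOXJ1, FOXN1, FOXO1 and FOXQ1 in OVCAR-3. At the stricter −log10 q they were FOXC2, FOXE1, FOXI1, FOXI2, FOXL1, FOXN4 and FOXS1 in COLO-205, FOXB1 and FOXQ1 in OVCAR-3, and FOXE1, FOXF2, FOXM1 and FOXN3 in SKOV-3.

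No peak marked FOXD4, FOXE3, FOXF1, FOXH1 or FOXP2. FOXP2, a factor of speech circuits, has 30 annotated starts, yet its nearest peak lay 158561 bp from a start in DU-145 and 1055112 bp in COLO-205. In SKOV-3, with 65 peaks on chromosome 7, the distance was 1838048 bp. FOXH1, a partner of SMAD proteins, had a peak 1616 bp from a start in DU-145 and 1627 bp in OVCAR-3, and was marked in both with a 2 kb window. The DU-145 peak lay within 1 kb of a start of another protein-coding gene, so the mark there may belong to that gene. For FOXE3, the lens factor, the nearest peak lay 3418 bp away in COLO-205, and for FOXF1, which acts in lung mesenchyme, 4667 bp. FOXD4 has close copies in the genome, so its unmarked state is uncertain.

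Distal peaks were those within 50 kb of a gene body and not within 1 kb of any protein-coding start. Counted once each, 143 lay near the members in OVCAR-3, 324 in COLO-205, 15 in SKOV-3 and 202 in DU-145. FOXN3 alone had 82 of the DU-145 peaks. At equal list length the counts were 12 in OVCAR-3, 95 in COLO-205, 15 in SKOV-3 and 15 in DU-145. Neighbouring members such as FOXF1, FOXC2 and FOXL1 shared peaks, so that 12 of the COLO-205 counts, 7 of the DU-145 counts, 2 of the OVCAR-3 counts and 1 of the SKOV-3 counts were repeats. The median density near members in COLO-205 was 4.18 per 100 kb, against 1.65 for all genes. It was 0.953 against 1.28 for DU-145, 0.975 against 0.847 for OVCAR-3, and 0 against 0 for SKOV-3. The COLO-205 median was the one furthest from that of all genes.

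**Figure D3:**
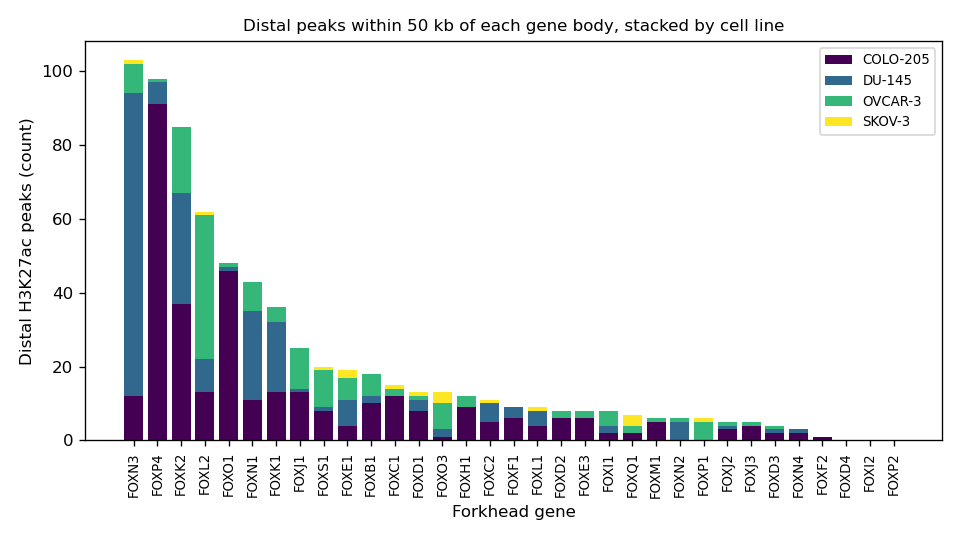
Number of distal H3K27ac peaks within 50 kb of each forkhead gene body (y axis, count), stacked by cell line, with genes (x axis) in order of the sum. FOXN3 reaches 103 and FOXP4 98, each mostly from a single line.

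The genes with the highest counts each drew them mainly from a few lines. FOXN3 had 82 distal peaks in DU-145, 70 of them overlapping its long gene body, against 12 in COLO-205, 8 in OVCAR-3 and 1 in SKOV-3. FOXP4 had 1 in OVCAR-3, 91 in COLO-205, 0 in SKOV-3 and 6 in DU-145. FOXO1 had 1 in OVCAR-3, 46 in COLO-205, 0 in SKOV-3 and 1 in DU-145. Peak density was also read in the 500 kb on either side beyond the reach of the distal counts. These flanks held 2.60 times the autosomal mean for FOXN3 in DU-145, and 19.5 times for FOXP4 and 6.13 times for FOXO1 in COLO-205. For FOXO1 the flanks held 0.191 times the mean in DU-145, 0.423 times in OVCAR-3 and 0.629 times in SKOV-3. Those of FOXN3 held 0.339 times in COLO-205, 0.576 times in OVCAR-3 and 0.419 times in SKOV-3. Those of FOXP4 held 2.18 times in DU-145, 1.19 times in OVCAR-3 and 2.73 times in SKOV-3. Whether copy number had a part in these counts was not tested.

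FOXL2 had 39 distal peaks in OVCAR-3, 13 in COLO-205, 9 in DU-145 and 1 in SKOV-3. The strongest of them in OVCAR-3, at chr3:138634100-138635578, had a −log10 q of 128. The flanks of FOXL2 held 7.92 times the OVCAR-3 mean. FOXK2 had 18 in OVCAR-3, 37 in COLO-205, 0 in SKOV-3 and 30 in DU-145, and its flanks held 8.61 times the mean in OVCAR-3, 7.45 times in COLO-205, 6.92 times in SKOV-3 and 3.06 times in DU-145. Of the distal peaks near members, 84.3% in COLO-205 overlapped no peak of another line, against 84.1% of all its distal peaks. For DU-145 the shares were 76.2% and 74.2%, for OVCAR-3 53.8% and 71.2%, and for SKOV-3 20% and 33.7%.

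Of 14 FOXO targets, 12 (85.7%) were marked in OVCAR-3, against 61.5% of all genes, and 9 (64.3%) in COLO-205, against 52.8%. In SKOV-3 4 (28.6%) were marked, against 32.4%, and in DU-145 10 (71.4%), against 62%. CDKN1B, an inhibitor of the cell cycle, had 5.59 in COLO-205, 5.12 in DU-145 and 13.5 in OVCAR-3. BCL2L11, which promotes apoptosis, had 3.52, 3.24 and 7.39, and IRS2 of insulin signalling 8.37, 3.97 and 6.23, in the same lines. CCNG2 and SESN3 were marked in DU-145 and OVCAR-3, and CAT, the catalase, in COLO-205 and OVCAR-3.

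Of 12 FOXM1 targets, 12 (100%) were marked in OVCAR-3, 11 (91.7%) in COLO-205, 9 (75%) in SKOV-3 and 11 (91.7%) in DU-145, each above the share of all genes. SKP2, which targets cell cycle inhibitors for decay, was marked in every line but SKOV-3. Of 10 genes of the FOXJ1 ciliary programme, 4 (40%) were marked in OVCAR-3, 3 (30%) in COLO-205, 3 (30%) in SKOV-3 and 5 (50%) in DU-145, against 61.5%, 52.8%, 32.4% and 62% of all genes. DNAI1, a dynein chain of cilia, was marked in DU-145, OVCAR-3 and SKOV-3. OVCAR-3, where FOXJ1 was marked, thus did not hold the highest count of this list.

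**Figure D4:**
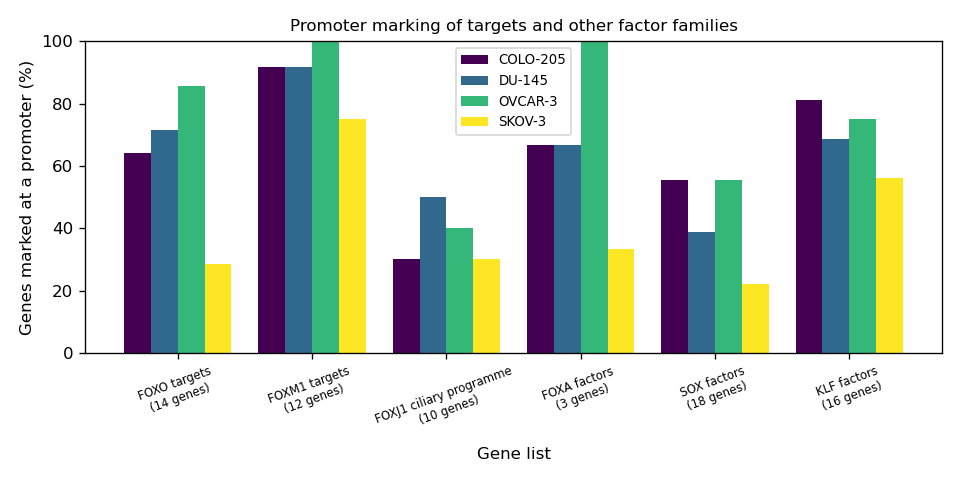
Share of the genes of each list marked at a promoter (y axis, percent) by cell line (colour, 1 library each), for FOXO targets, FOXM1 targets, the FOXJ1 ciliary programme and the FOXA, SOX and KLF factors (x axis). FOXM1 targets range from 75% in SKOV-3 to 100% in OVCAR-3.

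Beside other transcription factor families, the forkhead share lay between those of the SOX and KLF genes in every line but OVCAR-3, where it was below both. Of 18 SOX genes, 55.6% were marked in OVCAR-3, 55.6% in COLO-205, 22.2% in SKOV-3 and 38.9% in DU-145. Of 16 KLF genes, 75% were marked in OVCAR-3, 81.2% in COLO-205, 56.2% in SKOV-3 and 68.8% in DU-145. FOXA1 was marked in all 4 lines, FOXA2 in COLO-205 and OVCAR-3, and FOXA3 in DU-145 and OVCAR-3.

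The 7-base forkhead motif GTAAACA was searched on both strands in the 400 bp around each summit. Among distal peaks near marked members it was found in 4 of 116 for OVCAR-3, 9 of 291 for COLO-205, 1 of 9 for SKOV-3 and 4 of 186 for DU-145. Over all distal peaks the share was 2.41% for COLO-205, 2.89% for DU-145, 2.92% for OVCAR-3 and 2.73% for SKOV-3. These counts are too small to set the members' peaks apart. In the 500 bp on either side of the first start, the median CpG observed over expected ratio was 0.825 for members marked in all 4 lines, 0.812 for those marked in 1 to 3 and 0.786 for those marked in none. For all genes it was 0.801, 0.712 and 0.263 in the same order. Of the unmarked members, FOXE3, FOXF1 and FOXP2 had 0.786, 0.918 and 0.968, above the median of all genes at 0.690, while FOXH1 and FOXD4 had 0.387 and 0.652, below it.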

How the data were processed

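H3K27ac ChIP-seq libraries of 4 cell lines, 1 each, were read as peak lists on hg19 (GRCh37). Per the submitters' processing notes, Bowtie2 2.1.0 and MACS2 2.1.0.20150603 were used, and peaks were called by the authors per library. The deposited fold enrichment is the summit pileup over local background, a ratio within a library. The deposited −log10 p and −log10 q are those of the summit, and the deposited score is 10 times the −log10 q as a whole number, within 1. The methods state that peaks closer than 350 bp were merged, yet the lists hold 14087 closer neighbours in DU-145, 8777 in COLO-205, 2070 in SKOV-3 and 16181 in OVCAR-3. Sequencing depth was not given in the sources used here. Whole-number pileups were recovered from fold and −log10 p (pseudocount 1, tolerance 0.001) in 100% of peaks.

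Genes came from GENCODE release 44 lifted to hg19. An overlap of 1 bp sufficed. Python 3.11.15, numpy 2.4.6, pandas 2.3.3 and scipy 1.17.1 were used, and scripts were tested on simulated data. Members and lists were chosen with earlier results of these data known. Values are given for members marked in 1 to 3 lines, the 3 strongest and 3 weakest by median percentile of those marked in all 4, the 5 with most distal peaks, and up to 10 listed genes that differ between lines. FOXK1, FOXN3 and FOXP1 promoter values were added after their values were seen, and flank densities after the distal counts were seen. Of 3 endothelial markers, PECAM1 was not analysed here. Some listed genes, counts that rest on them, and an upstream sequence are not reported here. Alternatives changed the window, q, overlap, starts, merging, list length and reach.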

Additional observations from a re-analysis of the deposited data

How the results depend on the processing

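With each list shortened to its 14001 strongest peaks, 12 members were marked in COLO-205 in place of 23, and 12 were marked in none of the lines in place of 5. Distal peaks near the members, given here as the number divided by the members counted, then came to 2.88 for COLO-205 in place of 9.82, 0.455 for DU-145 in place of 6.12 and 0.364 for OVCAR-3 in place of 4.33, since fewer peaks were used. No distal value for all genes is given at that length. At a −log10 q of 10 or more, 10 members were marked in none, and distal peaks per member came to 1.94 for OVCAR-3, 4.39 for COLO-205, 0.152 for SKOV-3 in place of 0.455 and 1.67 for DU-145. With 2 kb on either side of a start, 5 members were marked in exactly 1 line in place of 8. A reach of 20 kb gave 6.27 distal peaks per member for COLO-205 and 2.76 for OVCAR-3, and 100 kb gave 15.2 for COLO-205. Outside gene bodies DU-145 had 2.27. Without FOXN3, an alternative chosen after seeing the data, DU-145 had 3.75. The other counts over the members were within 1.5 times the reported value under the alternatives run.

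The number of lines marking a gene was the same under all 9 promoter alternatives for 11 of 33 members. Merging, and using protein-coding transcripts alone, changed that number for 0 members. No paired analysis was possible because each line has 1 library and no test was run. A state that differs between lines may be that of a library, since none was repeated, and a gene without a peak may lie under the calling threshold.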
